A study of Homo sapiens with 4 samples.

Results

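The nuclear receptor family was followed in RNA-seq libraries of human cells labelled HepG2, a line derived from a liver tumor. The family was taken as 45 listed genes. Of these, 44 were matched to an identifier of the files, and NR2E3 was not analysed here. They were read out of 57768 gene entries, and 27 of them were among the 12491 genes with a mean level of at least 1 FPKM (fragments per kilobase of transcript, scaled by the size of the library) over the 4 libraries. Only these 27 entered the test between genotypes. The libraries were 2 of wild-type (WT) cells and 2 of C/EBPβ enh-/- cells. The latter had lost an enhancer of the C/EBPβ gene from both alleles by CRISPR/Cas9 editing. C/EBPβ is a transcription factor enriched in liver. All cells were grown in the same serum-containing medium, and the labels name no receptor ligand. Neither the number of clones behind the deleted cells nor separate cultures for the libraries of a genotype are stated in the sources used here. The p-values therefore measure the spread between these libraries only.

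Nuclear receptors are transcription factors that bind DNA through zinc fingers, and many of them are switched by small fat-soluble ligands such as steroids, thyroid hormone, retinoic acid, oxysterols, bile acids and fatty acids. Many non-steroid receptors bind as heterodimers with a retinoid X receptor (RXR), and recruit corepressors or coactivators depending on the ligand. In liver, HNF4A maintains the hepatocyte program, and NR1H4 (the bile acid receptor FXR), NR1I2 (PXR), NR1I3 (CAR), PPARA and NR1H3 (LXRα) control bile acid, drug, fatty acid and cholesterol metabolism.

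The promoters of 4 receptors are shown because they span the range from the liver receptors that were nearly silent here (HNF4A and NR1H4) to receptors among the most abundant (ESRRA and NR1D2). Each is the 250 bases before a RefSeq gene start, taken from the GRCh38.p14 promoter table and found again letter for letter in GRCh37, whose coordinates are given. Capitals mark CpG dinucleotides, the bases at which DNA methylation occurs in mammals. All 4 lie on the plus strand, at chr20:42984089-42984338 for HNF4A, chr12:100896888-100897137 for NR1H4, chr11:64072746-64072995 for ESRRA and chr3:23987362-23987611 for NR1D2.
HNF4A promoter: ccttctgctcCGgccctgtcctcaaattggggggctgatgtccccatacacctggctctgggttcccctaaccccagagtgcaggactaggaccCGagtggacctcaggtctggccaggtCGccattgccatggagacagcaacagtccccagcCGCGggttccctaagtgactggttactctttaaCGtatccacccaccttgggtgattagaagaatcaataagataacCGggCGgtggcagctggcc
NR1H4 promoter: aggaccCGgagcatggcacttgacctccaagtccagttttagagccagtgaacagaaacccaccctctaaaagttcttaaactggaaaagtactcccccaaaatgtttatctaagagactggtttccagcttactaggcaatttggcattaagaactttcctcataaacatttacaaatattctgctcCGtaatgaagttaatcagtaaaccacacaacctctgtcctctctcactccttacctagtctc
ESRRA promoter: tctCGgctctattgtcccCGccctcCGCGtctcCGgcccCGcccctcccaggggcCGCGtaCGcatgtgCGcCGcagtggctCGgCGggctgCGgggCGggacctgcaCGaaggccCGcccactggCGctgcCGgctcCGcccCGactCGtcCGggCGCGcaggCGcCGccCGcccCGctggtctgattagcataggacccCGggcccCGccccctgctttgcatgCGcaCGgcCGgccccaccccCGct
NR1D2 promoter: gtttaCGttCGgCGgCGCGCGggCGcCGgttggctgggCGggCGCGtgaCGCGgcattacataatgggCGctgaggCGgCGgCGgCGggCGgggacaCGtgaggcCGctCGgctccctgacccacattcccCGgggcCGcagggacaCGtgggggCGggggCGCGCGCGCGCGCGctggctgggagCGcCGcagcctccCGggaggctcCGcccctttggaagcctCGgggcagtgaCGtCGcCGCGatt
The HNF4A sequence holds 8 CpG and the NR1H4 sequence 2, whereas the ESRRA sequence holds 35 and the NR1D2 sequence 42. HNF4A has 2 annotated promoters, and the one shown lies before the most upstream gene start. Whether hepatocytes use that start was not examined.

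The cells did not carry the receptor set of hepatocytes. Of 10 receptors listed for their roles in liver, 5 were nearly absent from all 4 libraries. HNF4A was listed at 0.0218 and 0.0409 FPKM in WT and at 0 and 0.00594 in C/EBPβ enh-/- cells. NR1H4 and NR1I2 did not exceed 0.0514 and 0.0182 FPKM in any library. NR0B2 (SHP), a receptor without a DNA-binding domain that represses bile acid synthesis, was at 0.0233 and 0.0208 FPKM in WT and at 0 in both C/EBPβ enh-/- libraries. NR5A2 (LRH-1), an activator of bile acid synthesis genes, reached at most 0.0571 FPKM. The other 5 were PPARA, NR1H3, THRB, RXRA and NR1I3, all above 1 FPKM in every library. The lowest of their means was 2.45 FPKM, that of NR1I3. The NR1I3 value is uncertain, because 20.4% of its exon bases also belong to the gene TOMM40L. An FPKM of 0.1 over 2 kb of transcript stood for about 4.4 to 9.6 fragments at the estimated depths, so values under 0.1 rest on few fragments or none.

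The defining genes of hepatocytes were as low. All 18 hepatocyte markers examined, among them ALB, AFP and APOA1, were under 1 FPKM in every library. The highest single value was 0.370 FPKM, 2 of the 18 were at 0 throughout, and their summed level ranged from 0.277 to 0.521 in WT and from 0.448 to 0.799 in C/EBPβ enh-/- cells. By these genes the data go against the label HepG2, and the cells are called by their label only. The 5 markers of simple epithelium summed to 648 and 797 FPKM in WT and to 238 in each C/EBPβ enh-/- library. Nearly all of this was KRT8 and KRT18, since KRT19 did not exceed 1.81 FPKM and EPCAM and CDH1 were under 0.01 throughout. The keratins KRT8 and KRT18 were lower in C/EBPβ enh-/- cells (log2 fold changes −1.68 and −1.52, adjusted p = 0.0325 and 0.0243, limma). The 5 mesenchymal markers summed to 252 and 325 FPKM in WT and to 202 and 155 in C/EBPβ enh-/- cells, of which most was VIM. The 3 squamous, 3 haematopoietic and 2 endothelial markers stayed under 1 FPKM. Whether these shifts in other markers had a part in the receptor values was not tested, and in bulk RNA a smaller share of cells and less RNA per cell cannot be told apart. The estimated depth was about 38800000 and 43500000 fragments in WT and 22000000 and 48000000 in the deleted cells.

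The most abundant receptors were an orphan receptor and receptors found in many tissues. NR2F6 (EAR2), an orphan receptor of the COUP-TF group, ranked first among the receptors in every library, with 30.4 and 43.7 FPKM in WT and 33.8 and 33.9 in C/EBPβ enh-/- cells. ESRRA, the estrogen-related receptor that drives mitochondrial genes, was next by mean, with 25.5, 28.2, 26.4 and 17.3 FPKM in the same order. In the annotation 9.16% of its exon bases also belong to TRMT112, a gene at 150 to 217 FPKM, so its level and place are uncertain. NR1H2 (LXRβ), the broadly expressed oxysterol receptor, was at 15.5, 27.3, 31.1 and 23.0 FPKM. The glucocorticoid receptor NR3C1 was at 28.1, 19.4, 18.2 and 24.9 FPKM, and NR1D2 (REV-ERBβ), a repressor of the circadian clock, at 25.5, 15.8, 17.0 and 19.7. In none of these 5 were the genotypes separated. The ranges of the other 4 overlapped one another, so their order is not resolved. Together the 5 held 48.1% and 49.4% of the summed receptor level in WT and 52.6% and 50.5% in C/EBPβ enh-/- cells.

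The summed level of all receptors was 260.0 and 271.9 FPKM in WT and 240.5 and 235.2 FPKM in C/EBPβ enh-/- cells. By mean over the 4 libraries, 4 receptors were at 20 FPKM or more, 11 from 5 to under 20, 12 from 1 to under 5, 4 from 0.1 to under 1 and 12 under 0.1, and NR2E1 was at 0 in every library. A total of 25 receptors had at least 1 FPKM in every library, and 15 stayed under 1 in every library. Just above the level needed for the test were the mineralocorticoid receptor NR3C2 (mean 1.02 FPKM), NR1D1 (1.15) and NR6A1 (1.47). Just below it were RORA (0.881), ESR1 (0.682), RARB (0.296) and ESR2 (0.270).

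**Figure D1:**
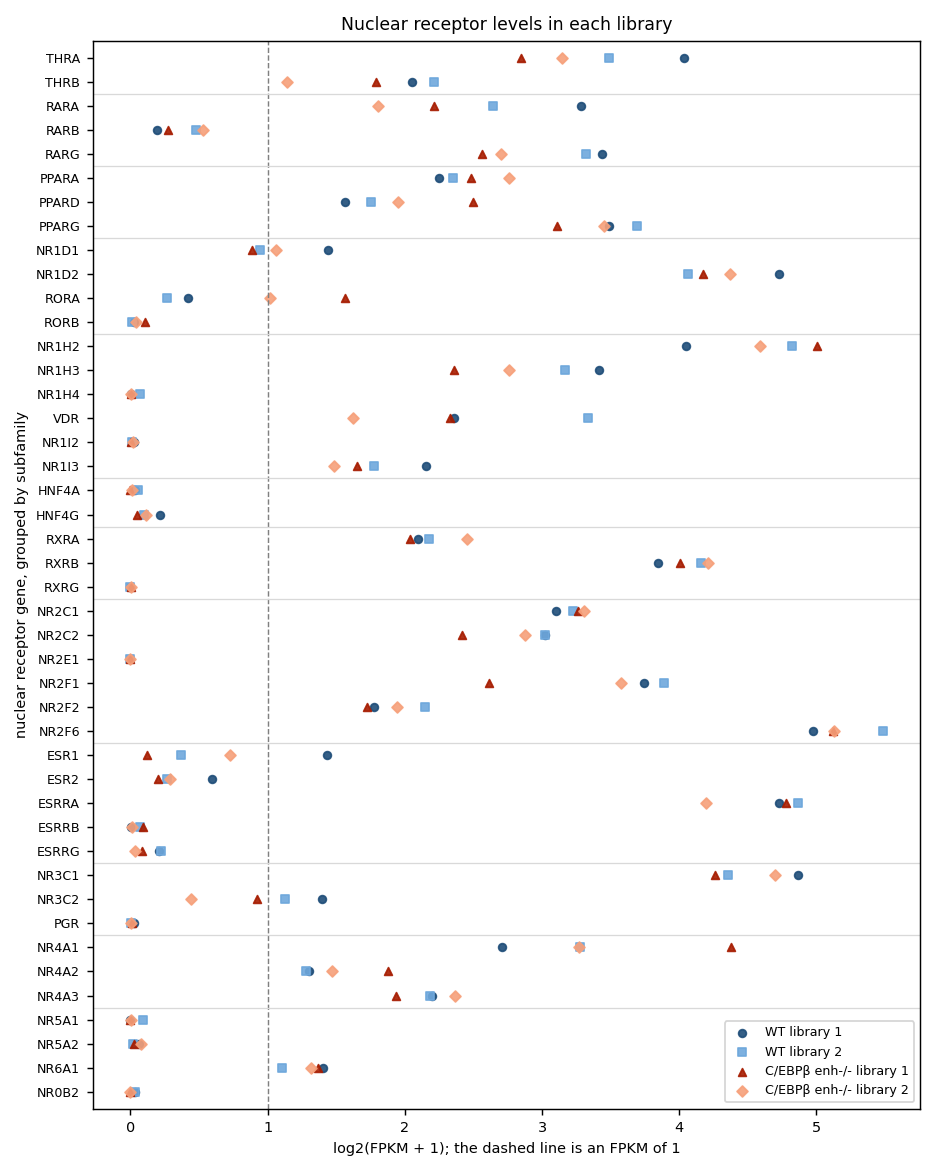
Level of each of the 44 matched receptors in each of the 4 libraries, as log2(FPKM + 1), grouped by subfamily. Each symbol is 1 library, and the dashed line stands at 1 FPKM. NR2F6 lies farthest to the right in every library, while HNF4A, NR1H4, NR1I2, NR0B2 and NR5A2 lie at or beside 0.

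Receptors below the level for the test had promoters poorer in CpG, as did other genes. Promoter windows of 300 bases were available for 39 receptors (94 windows). For the 24 tested receptors with a window, the richest window of each held a median of 26 CpG, and 20 of the 24 had at least 20. For the 15 that were not tested the median was 17, and 5 of the 15 had at least 20. Over protein-coding genes the medians were 29 for 8984 tested genes and 10 for 6012 that were not tested, so the difference is not particular to the receptors. NR1I3, with at most 3 CpG, and PPARG, with at most 10, were above 1 FPKM in every library with CpG-poor windows, although the values do not show which start was used. The NR1I3 value is also uncertain, since 20.4% of its exon bases belong to TOMM40L as well. RXRG, the RXR of muscle and nerve, was nearly silent (at most 0.00283 FPKM) with a window of 28 CpG.

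No receptor differed between the genotypes at an adjusted p under 0.05. The comparison asks which receptors change when the C/EBPβ enhancer is lost. The C/EBPβ gene itself, CEBPB, was at 30.6 and 19.2 FPKM in WT and at 12.4 and 11.8 in C/EBPβ enh-/- cells (log2 fold change −0.94, SE 0.27, adjusted p = 0.125, limma). Its estimate was −0.62 without WT library 1 and −1.27 without WT library 2. All log2 fold changes are on the log2(FPKM + 1) scale, on which changes of genes with low levels appear too small. Of the 27 tested receptors, 0 were lower and 0 were higher at an adjusted p under 0.05, against 1.21% and 0.248% of all tested genes. At an unadjusted p under 0.05, 4 receptors were lower (THRA, RARA, RARG and NR1H3) and 0 were higher, against 16.9% and 3.86% of all tested genes. The adjusted p-values of the 27 ran from 0.129 to 0.949.

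With all 4 libraries, the median of the family lay beside that of all tested genes. The median log2 fold change of the 27 receptors was −0.13 (quartiles −0.62 and 0.11), and that of all tested genes was −0.14 (quartiles −0.47 and 0.16). Without C/EBPβ enh-/- library 2 these medians were −0.25 and −0.10, among genes with a mean of at least 5 FPKM they were −0.31 and −0.16, and with each library centred on its median they were 0.0454 and 0.0345. For 11 receptors the values of both deleted libraries lay under those of both WT libraries, which is 40.7% against 37.5% of all tested genes. Both lay above for 4 receptors, which is 14.8% against 15.1%, and the genotypes overlapped for the remaining 12. These shares are near the background.

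The classical receptors for thyroid hormone and retinoic acid had negative estimates in all 4 tested members, as 62.6% of all tested genes did. In each of the 4 the genotypes were apart, against 37.5% of all tested genes that were apart and lower. Thyroid hormone receptor α, THRA, was at 15.4 and 10.2 FPKM in WT and at 6.18 and 7.85 in C/EBPβ enh-/- cells. Its log2 fold change was −0.76 (SE 0.27, unadjusted p = 0.0255, adjusted p = 0.176, limma). THRB was at 3.16 and 3.62 FPKM in WT and at 2.46 and 1.21 in C/EBPβ enh-/- cells (log2 fold change −0.67, SE 0.30, adjusted p = 0.264). Both receptors were below WT in each deleted library, without passing the test.

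RARA, the retinoic acid receptor that is fused to PML in promyelocytic leukemia, had 8.72 and 5.24 FPKM in WT and 3.63 and 2.49 in C/EBPβ enh-/- cells. Its log2 fold change was −0.95 (SE 0.30, adjusted p = 0.148). In the annotation 11.7% of its exon bases also belong to the antisense gene RARA-AS1, at 2.06 and 1.27 FPKM in WT and 0.770 and 0.443 in C/EBPβ enh-/- cells, so its value is uncertain. RARG, the retinoic acid receptor abundant in skin, had 9.80 and 8.98 FPKM in WT and 4.92 and 5.51 in C/EBPβ enh-/- cells. Its log2 fold change of −0.74 had the smallest error of the 4 (SE 0.22, adjusted p = 0.129). RARB, which retinoic acid induces through its own promoter, was low throughout, with 0.143 and 0.391 FPKM in WT and 0.207 and 0.444 in C/EBPβ enh-/- cells, and was not tested. The estimates of THRA, THRB, RARA and RARG stayed below 0 under every alternative setting in which they were fitted (11 for THRB, which a mean FPKM of at least 5 leaves out, and 12 for the others), with no adjusted p under 0.0979. Over these settings they ranged from −1.04 to −0.49 for THRA, −0.99 to −0.34 for THRB, −1.27 to −0.63 for RARA and −0.84 to −0.57 for RARG. The summed level of the 3 retinoic acid receptors was 18.7 and 14.6 FPKM in WT and 8.76 and 8.44 in C/EBPβ enh-/- cells, and that of both thyroid hormone receptors was 18.5 and 13.8 FPKM against 8.64 and 9.06.

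The RARB promoter is shown because it holds a direct repeat of half-sites 5 bases apart, the classical arrangement for a retinoic acid receptor with an RXR. It lies on the plus strand at chr3:25469681-25469737 (GRCh37). Capitals mark the repeat, which begins 53 bases before the gene start.
RARB direct repeat: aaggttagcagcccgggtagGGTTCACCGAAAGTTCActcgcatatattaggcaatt
The repeat, known as DR5, was searched on both strands in its degenerate form, and 0.0883% of all 35116 promoter windows held it. RARB was the 1 receptor with a match. The single half-site AGGTCA, searched on both strands, was in 16% of the 94 receptor windows and in 13.8% of all windows.

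The tested RXRs, the shared partners of these receptors, overlapped between the genotypes. RXRA was at 3.28 and 3.51 FPKM in WT and at 3.10 and 4.48 in C/EBPβ enh-/- cells, and RXRB at 13.3 and 16.9 against 15 and 17.5. RXRB shares 9.26% of its exon bases with SLC39A7, a zinc transporter gene at 63.2 and 109 FPKM in WT and 186 and 100 in C/EBPβ enh-/- cells, so its value is uncertain. The log2 fold changes were 0.11 for both (SE 0.25 and 0.23, adjusted p = 0.842 and 0.829), with 95% intervals from −0.49 to 0.71 and from −0.44 to 0.66. No test of the difference between these receptors and RARA or RARG was run. The sign of each changed when 1 library was left out.

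The oxysterol receptors were both expressed, and neither passed the test. NR1H3 (LXRα), which activates cholesterol efflux and lipogenesis genes, was at 9.67 and 7.97 FPKM in WT and at 4.12 and 5.76 in C/EBPβ enh-/- cells (log2 fold change −0.73, SE 0.25, unadjusted p = 0.0216, adjusted p = 0.165). Its relative NR1H2 overlapped between the genotypes, with a log2 fold change of 0.36 (SE 0.31, adjusted p = 0.554) that turned to −0.0265 without WT library 1. The ratio of NR1H3 to NR1H2 within a library was 0.622 and 0.292 in WT and 0.133 and 0.250 in C/EBPβ enh-/- cells. In all 4 libraries NR1H2 was the more abundant oxysterol receptor.

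Among the PPARs, receptors for fatty acids, PPARG was the most abundant in every library. PPARG, the receptor of fat storage, was at 10.2 and 11.9 FPKM in WT and at 7.63 and 9.95 in C/EBPβ enh-/- cells (log2 fold change −0.31, SE 0.23, adjusted p = 0.494). PPARD, the broadly expressed member, was at 1.96 and 2.37 FPKM in WT and at 4.64 and 2.87 in C/EBPβ enh-/- cells (0.57, SE 0.28, adjusted p = 0.302). PPARA, the receptor of hepatic fatty acid oxidation, was at 3.74 and 4.11 against 4.59 and 5.76 FPKM (0.32, SE 0.23, adjusted p = 0.474). None passed the test. When 1 library was left out, the estimates ranged from −0.48 to −0.14 for PPARG, from 0.29 to 0.84 for PPARD and from 0.18 to 0.46 for PPARA. The ratio of PPARA to PPARG within a library was 0.367 and 0.345 in WT and 0.601 and 0.579 in C/EBPβ enh-/- cells, and that of PPARD to PPARG 0.192 and 0.199 against 0.607 and 0.289.

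Such ratios were formed for 12 pairs of related receptors, chosen after their values were seen. They do not depend on how a library was scaled. In 5 pairs the ratio was lower in both C/EBPβ enh-/- libraries than in both WT libraries, in 2 it was higher and in 5 the genotypes overlapped. Among single genes, 37.5% and 15.1% of all tested genes were apart in these directions, so the counts are not read as a result. Besides NR1H3 to NR1H2, the lower ratios were those of NR2C2 to NR2C1, NR2F1 to NR2F2, NR3C2 to NR3C1 and NR1D1 to NR1D2. Among these, NR2C2 and NR1D1 share 60.5% and 18% of their exon bases with other genes, MRPS25 and THRA, whose values were also lower in both deleted libraries. With 2 libraries against 2, an exact permutation test cannot go below p = 0.333 (two-sided), so these ratios are given without a test.

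VDR and NR1I3, the other tested receptors of sterols, vitamins and foreign compounds, had negative estimates. VDR, the vitamin D receptor, was at 4.14 and 9.08 FPKM in WT and at 4.03 and 2.08 in C/EBPβ enh-/- cells. Its log2 fold change of −0.87 had a wide error (SE 0.39, adjusted p = 0.266), and WT library 1 lay beside C/EBPβ enh-/- library 1, so that the estimate was −0.38 without WT library 2. NR1I3 (CAR), the receptor that induces drug-metabolizing enzymes, was at 3.45 and 2.42 FPKM in WT and at 2.14 and 1.79 in C/EBPβ enh-/- cells (−0.40, SE 0.26, adjusted p = 0.432), with estimates from −0.59 to −0.21 when 1 library was left out. In the annotation 20.4% of its exon bases also belong to TOMM40L, a mitochondrial import gene at 10.4 and 9.84 FPKM in WT and 7.47 and 4.47 in C/EBPβ enh-/- cells, and strand-specific counting is not stated, so the NR1I3 value is uncertain.

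NR3C1 stood well above NR3C2, and both of these adrenal steroid receptors had negative estimates, that of NR3C1 turning to 0.0467 when each library was centred on its median. NR3C1 overlapped between the genotypes (log2 fold change −0.13, SE 0.27, adjusted p = 0.829). NR3C2, the mineralocorticoid receptor, was at 1.63 and 1.18 FPKM in WT and at 0.891 and 0.355 in C/EBPβ enh-/- cells (−0.58, SE 0.31, adjusted p = 0.336). Its estimate was −1.15 with a pseudocount of 0.1 and ranged from −0.82 to −0.34 when 1 library was left out. The progesterone receptor PGR did not exceed 0.0160 FPKM. The estrogen receptor ESR1 was at 1.69 FPKM in WT library 1 and at 0.293 FPKM in WT library 2, and at 0.0849 and 0.656 FPKM in the deleted cells, so 1 library set its WT mean. ESR2 ranged from 0.150 to 0.508 FPKM. ESRRA, for which no classical hormone is known, overlapped (log2 fold change −0.31, SE 0.26, adjusted p = 0.536) and ranged from −0.61 to −0.0221 when either deleted library was left out, while ESRRB and ESRRG were at most at 0.166 FPKM.

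The NR4A receptors, immediate early genes induced by stress and growth signals, did not pass the test. NR4A1 (NUR77) was at 5.53 and 8.71 FPKM in WT and at 19.8 and 8.66 in C/EBPβ enh-/- cells. Its log2 fold change of 0.83 (SE 0.40, adjusted p = 0.285) rested on C/EBPβ enh-/- library 1, the shallowest of the 4, and was 0.28 without it. NR4A2 (NURR1) was at 1.46 and 1.43 FPKM in WT and at 2.67 and 1.77 in C/EBPβ enh-/- cells (0.38, SE 0.27, adjusted p = 0.464), and its estimate was 0.18 without C/EBPβ enh-/- library 1. NR4A3 was at 3.59 and 3.53 against 2.83 and 4.16 FPKM, and the genotypes overlapped.

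The REV-ERBs, receptors of the circadian clock, overlapped between the genotypes. NR1D2 had a log2 fold change of −0.12 (SE 0.28, 95% interval −0.79 to 0.54), and NR1D1 (REV-ERBα) one of −0.22, with 1.71 and 0.926 FPKM in WT and 0.852 and 1.09 in C/EBPβ enh-/- cells. RORA, an activator at the elements that the REV-ERBs repress, was at 0.339 and 0.205 FPKM in WT and at 1.96 and 1.02 in C/EBPβ enh-/- cells. Its mean was 5.47 times that of WT, but at a mean of 0.881 FPKM it did not enter the test. RORB did not exceed 0.0737 FPKM.

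The orphan receptors of the NR2 group were led by NR2F6 and held no called member. NR2F1 (COUP-TFI), a regulator of neural development, was at 12.4 and 13.8 FPKM in WT and at 5.10 and 10.9 in C/EBPβ enh-/- cells (log2 fold change −0.72, SE 0.34, adjusted p = 0.275), and its estimate was −0.24 without C/EBPβ enh-/- library 1. NR2F2 (COUP-TFII), a regulator of vein identity, was at 2.42 and 3.43 against 2.3 and 2.84 FPKM. The testicular receptors NR2C1 and NR2C2 had log2 fold changes of 0.12 and −0.38 (adjusted p = 0.783 and 0.423). When 1 library was left out, NR2C1 ranged from 0.0601 to 0.18 and NR2C2 ranged from −0.61 to −0.15. In the annotation 60.5% of the NR2C2 exon bases also belong to MRPS25, a ribosomal protein gene of mitochondria with 45.3 and 50.5 FPKM in WT and 30.9 and 35.6 in C/EBPβ enh-/- cells, so its value is uncertain. Outside these groups, NR6A1, a germ cell receptor, was at 1.64 and 1.15 FPKM in WT and 1.59 and 1.49 in C/EBPβ enh-/- cells, NR5A1, the receptor of steroid-making glands, did not exceed 0.0631, and HNF4G did not exceed 0.161.

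**Figure D2:**
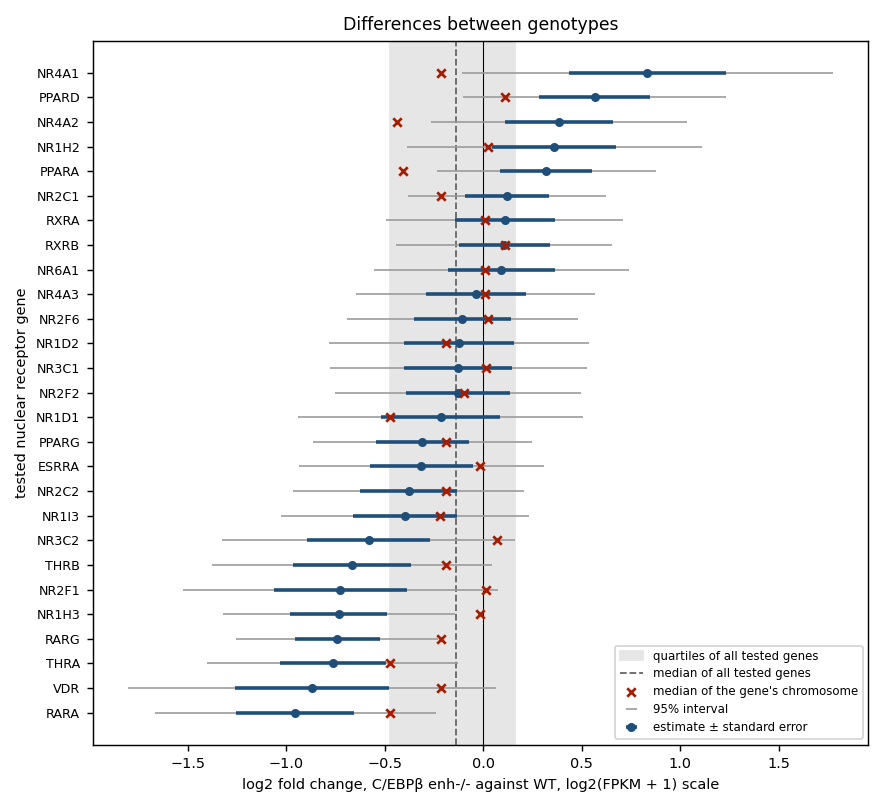
Log2 fold change of each of the 27 tested receptors, C/EBPβ enh-/- against WT, on the log2(FPKM + 1) scale. Points are estimates with thick bars for the standard error and thin bars for the 95% interval, crosses mark the median over the same chromosome, and the grey band and dashed line mark the quartiles and median of all tested genes. RARA lies lowest at −0.95 and NR4A1 highest at 0.83, and no receptor had an adjusted p under 0.05.

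Fold changes differed between whole chromosomes, and the receptors are given here beside the chromosomes they lie on. The median log2 fold change of tested genes was −0.47 on chromosome 17, where for 64.1% of genes both deleted libraries lay under both WT libraries, against 37.5% of all tested genes. THRA (chr17:38214543-38250120), NR1D1 (chr17:38249046-38256842) and RARA (chr17:38465432-38513895, GRCh37) lie there, with a gap of 208.6 kb between NR1D1 and RARA. THRA and NR1D1 are on opposite strands and share 473 exon bases, which is 18% of NR1D1, so reads there cannot be assigned without strand. Measured from the chromosome median, RARA was lower by −0.48, THRA by −0.29, and NR1D1 was higher by 0.26. On chromosome 3 (median −0.19) NR1D2, THRB and RARB are neighbors, with gaps of 136.5 kb and 192.1 kb, and had unlike values.

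Of 14 tested receptors on chromosomes 1, 2, 3, 12, 17 and 22, whose medians were below −0.15, 8 were apart and lower in this sense, and of 13 on the other chromosomes 3 were, against 37.5% of all tested genes and 41% to 64.1% of the tested genes on each of those 6 chromosomes. On the chromosomes of the 13 this share was 17% to 28.3%. Across the 27 receptors, which share 4 libraries, Pearson's r between a receptor's log2 fold change and its chromosome's median was 0.19. Of the 27, 17 were below the median of their chromosome and 10 above it. NR1H3 on chromosome 11 (median −0.02) and NR2F1 on chromosome 5 (median 0.01) were below their chromosomes, by −0.72 and −0.74. The NR2F1 estimate was −0.24 without C/EBPβ enh-/- library 1. VDR on chromosome 12 and NR3C2 on chromosome 4 were below theirs by −0.65 each. PPARA on chromosome 22 and NR4A2 on chromosome 2, whose medians were −0.41 and −0.44, were above theirs by 0.73 and 0.82. The part of these chromosome-wide shifts in the receptor values was not tested.

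A site of the form TTGCNNAA, a loose form of the C/EBP binding sequence, is shown for the tested receptors that hold one in the 250 bases before a gene start, because C/EBPβ is the product of the gene whose enhancer was deleted. Capitals mark the match, which may read on either strand. PPARG lies at chr3:12392816-12392863 on the plus strand, NR2F2 at chr15:96876869-96876916 on the plus strand, NR3C1 at chr5:142785121-142785168 on the minus strand and NR2C1 at chr12:95467555-95467602 on the minus strand (GRCh37).
PPARG site: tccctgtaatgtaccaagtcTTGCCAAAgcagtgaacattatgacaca
NR2F2 site: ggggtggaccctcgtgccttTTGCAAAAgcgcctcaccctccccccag
NR3C1 site: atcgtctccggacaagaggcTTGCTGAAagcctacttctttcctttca
NR2C1 site: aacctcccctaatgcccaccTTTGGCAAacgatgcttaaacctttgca
The NR2F2 site overlaps a second match on the other strand. Such a site was in 10.6% of the 94 receptor windows and in 10.5% of all windows, and 9 receptors held one. The 6 tested holders had log2 fold changes of −0.73 (NR1H3), −0.31 (PPARG), −0.13 (NR2F2), −0.13 (NR3C1), 0.11 (RXRA) and 0.12 (NR2C1), and the estimates of NR2F2, NR3C1 and RXRA changed sign in some alternative settings. The matches of NR1H3 and RXRA lie after the gene start and are not printed. The other holders, PGR, RARB and RORB, were not tested. The clock element CACGTG was in 9.57% of receptor windows, those of NR1D2 included, and in 7.26% of all windows.

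Genes that work with the receptors or are regulated by them were read from lists. Of 115 listed genes, 66 were tested, 1 was lower and 1 was higher at an adjusted p under 0.05, against 1.21% and 0.248% of all tested genes. The genotypes were apart and lower in the deleted cells for 25 genes and apart and higher for 8, against 37.5% and 15.1% of all tested genes. The median log2 fold change of the 66 was −0.39, and that of all tested genes −0.14. The gene that was lower was HADHA, a mitochondrial enzyme of fatty acid oxidation in the PPAR list, with 83.3 and 70.0 FPKM in WT and 24.1 and 27.9 in C/EBPβ enh-/- cells (−1.52, SE 0.22, adjusted p = 0.0319). It lies on chromosome 2, whose median was −0.44. The gene that was higher was SMPDL3A, a phosphodiesterase induced by LXR ligands, with 5.31 and 3.91 FPKM in WT and 17.5 and 20.8 in C/EBPβ enh-/- cells (1.85, SE 0.24, adjusted p = 0.0235). Both calls were lost when any 1 of the 4 libraries was left out, at adjusted p-values from 0.0978 to 0.232, while the log2 fold changes ranged from −1.65 to −1.40 for HADHA and from 1.67 to 2.03 for SMPDL3A.

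Estimates of both signs occurred among the targets of LXR and of PPAR. Among LXR targets, 5 of 8 were tested, 2 were apart and lower by value (SREBF1 and LPCAT3) and 2 apart and higher (SMPDL3A and MYLIP), against 37.5% and 15.1% of all tested genes. MYLIP, a ligase that degrades the LDL receptor, was at 2.59 and 1.80 FPKM in WT and at 6.25 and 2.74 in C/EBPβ enh-/- cells, while SREBF1, the master gene of lipogenesis and the most abundant of the list, had an estimate of −0.27 (adjusted p = 0.490). ABCA1, the cholesterol exporter, did not exceed 0.0721 FPKM, and no untested gene of the list exceeded 0.0807. Among PPAR targets, 7 of 12 were tested, 6 were apart and lower by value in the deleted cells and 1, PDK4, was apart and higher, against 37.5% and 15.1% of all tested genes. ACADM, another enzyme of fatty acid oxidation, had an estimate of −0.95 (adjusted p = 0.112). PDK4, a kinase that spares glucose, was at 1.34 and 1.42 FPKM in WT and at 10.7 and 4.30 in C/EBPβ enh-/- cells (1.73, SE 0.39, adjusted p = 0.0816).

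Of 11 glucocorticoid targets, 9 were tested and none passed, although SGK1 did when only protein-coding genes were fitted (adjusted p = 0.0302, limma). SGK1, a kinase of sodium transport, was the highest by estimate and the most abundant by mean over the 4 libraries. It was at 166 and 137 FPKM in WT and 470 and 303 in C/EBPβ enh-/- cells (log2 fold change 1.32, SE 0.27, adjusted p = 0.0706). In WT library 1 other genes of the list, DUSP1 among them, were above it. DUSP1, a phosphatase of MAP kinases, was at 180 and 104 FPKM against 166 and 89.5 (−0.17, adjusted p = 0.840, and 0.23 without WT library 1). Of the thyroid hormone targets, 3 of 5 were tested, and 2 of these were apart and lower by value, against 37.5% of all tested genes. They were ME1, the malic enzyme (−0.98, adjusted p = 0.0900), and KLF9, also listed as a glucocorticoid target (−0.69, adjusted p = 0.193). HR, a corepressor of hair and brain, overlapped, at −0.62 (adjusted p = 0.527), which turned to 0.14 without C/EBPβ enh-/- library 1. Both tested retinoic acid targets, DHRS3 (−0.65, adjusted p = 0.399, and −0.0206 without WT library 1) and CRABP2 (0.13, adjusted p = 0.867), overlapped between the genotypes. Among the 6 tested genes of retinoid binding and metabolism, which include the same DHRS3 and CRABP2, every one overlapped. Of all tested genes, 37.5% were apart and lower and 15.1% apart and higher. The most abundant of the 6 by mean were the retinol dehydrogenases RDH10 (−0.81, adjusted p = 0.285) and RDH11 (−0.29, adjusted p = 0.561). When 1 library was left out, RDH10 ranged from −1.27 to −0.34 and RDH11 from −0.58 to −0.00718.

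Most listed genes of bile acid, drug and vitamin D metabolism stayed below the level for the test. None of 9 genes listed under bile acid synthesis and transport reached the level for the test. The list also holds FGF19 and KNG1, which encode neither enzymes nor transporters of bile acids. The highest value was 0.345 FPKM, in the transporter subunit SLC51A, and the uptake transporter SLC10A1 came next by mean. Of 9 PXR and CAR targets only the exporter ABCC2 (0.59, adjusted p = 0.262) and the heme synthesis enzyme ALAS1 (−0.43, adjusted p = 0.398) were tested, with estimates from 0.36 to 0.81 and from −0.68 to −0.18 when 1 library was left out, and CYP3A4 was at most at 0.0215 FPKM. None of 4 vitamin D genes was tested. CYP24A1, which breaks down vitamin D, was at 0.214 and 0.337 FPKM in WT and at 0.00409 and 0.0515 in C/EBPβ enh-/- cells, and CYP27B1, which activates it, was at most at 0.837 FPKM. Of 5 estrogen targets XBP1, a factor of the unfolded protein response, was tested (−0.51, adjusted p = 0.248), and PDZK1 was at most at 1.29 FPKM.

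Cofactors were expressed throughout, and none passed the test. All 10 coactivators were tested, 7 were apart and lower by value in the deleted cells and 1, NCOA2, was apart and higher (0.35, adjusted p = 0.389), against 37.5% and 15.1% of all tested genes. The most abundant were the acetyltransferase NCOA3 (−0.78, adjusted p = 0.137) and the arginine methyltransferase CARM1 (−0.58, adjusted p = 0.239). CARM1 was at 17.7 FPKM in each WT library and at 9.70 and 13.7 in C/EBPβ enh-/- libraries 1 and 2, so library 2 lay nearer to WT. All 8 corepressors were tested, 3 were apart and lower by value and 1, the deacetylase HDAC3, was apart and higher (0.26, adjusted p = 0.526), shares near the same background. The most abundant by mean were the NCOR complex subunits TBL1XR1 (−0.89, adjusted p = 0.112) and GPS2 (−0.52, adjusted p = 0.251). NCOR1 was close to GPS2, with means of 30.4 and 30.8 FPKM, and above it in WT library 1. Of 6 chaperones of steroid receptors 1 was apart and lower by value, and the chaperones HSP90AB1 and HSP90AA1 were the most abundant (log2 fold changes 0.13 and −0.38, adjusted p = 0.834 and 0.612). The HSP90AB1 estimate turned to −0.24 without WT library 1, and that of HSP90AA1 to 0.16 without WT library 2.

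Of 14 circadian clock genes, the partners of the REV-ERBs and RORs, 12 were tested and none passed. CRY1, a repressor of the clock, was at −0.95 (adjusted p = 0.0839). DBP, an output factor, was at −0.52 (adjusted p = 0.552), which turned to 0.0243 without WT library 1. Of the 6 genes listed under the C/EBP name 4 were tested and 2 of these, CEBPB and CEBPD, were apart and lower by value, against 37.5% of all tested genes. CEBPA, which was not tested, was at 0.524 and 0.00013 FPKM in WT and at 1.55 and 1.63 in C/EBPβ enh-/- cells. CEBPZ, listed with them by its name although it is not a bZIP factor like the others, was the most abundant by mean over the 4 libraries. Its estimate was 0.06 (adjusted p = 0.898). In WT library 1 CEBPB was above it, at 30.6 against 28.3 FPKM.

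**Figure D3:**
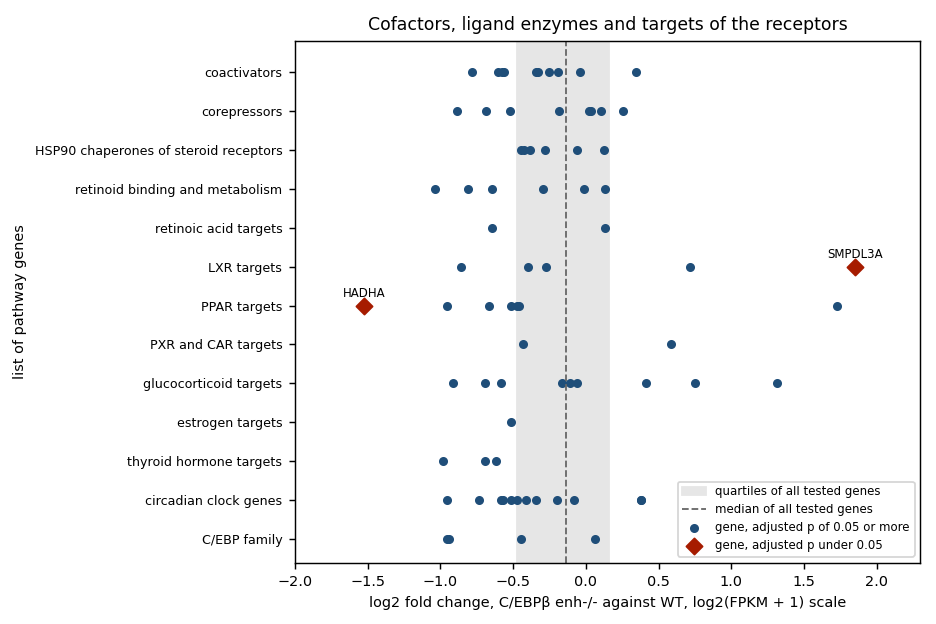
Log2 fold change of each tested gene in lists of receptor cofactors, ligand enzymes, targets and the C/EBP family, C/EBPβ enh-/- against WT, on the log2(FPKM + 1) scale. Each point is 1 gene, diamonds mark HADHA (−1.52) and SMPDL3A (1.85), which had an adjusted p under 0.05, and the grey band and dashed line mark the quartiles and median of all tested genes.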

How the data were processed

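RNA-seq of 4 libraries (2 WT, 2 C/EBPβ enh-/-) was used, with genotypes taken from the labels. The measurements deposited by the authors are FPKM, a single value for each gene of a library, on hg19. The submitters' processing notes name TopHat2 2.0.13, Cufflinks and edgeR, without their roles. Whether counting used strand, and how libraries were scaled to each other, is not given in the sources used here. Gene identifiers were paired with symbols and GRCh37 coordinates through GENCODE release 44 lifted to that build. Of 57815 entries, 57768 were left without pseudoautosomal copies on chromosome Y, and 55535 had a symbol.

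Values were fitted as log2(FPKM + 1) with limma 3.58.1 in R 4.3.3 (lmFit, eBayes with a trend, two-sided) over the 12491 genes whose FPKM averaged 1 or more, without a replicate block, with Benjamini-Hochberg adjustment over all of them and a threshold of 0.05. The fit was tested on simulated data. The receptors, lists and tests were chosen with earlier results of these data known. Beyond the receptors, the text names the listed genes with an adjusted p under 0.05, those with genotypes apart and a log2 fold change of 1 or more in either direction, the 2 most abundant genes of each list, and a few chosen after their values were seen (MYLIP, ABCA1, CYP3A4, LPCAT3, NCOA2, HDAC3, CEBPA, CEBPD).

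Depth was estimated from the spacing of low FPKM values in genes with a single transcript. From 35.5% to 41.0% of these values lay within 0.1 of a whole fragment, so depths are approximate, no counts were recovered, and intervals or floors that need counts were not given. Promoter windows reach from 250 bases before to 50 after a RefSeq start. Figures were drawn with matplotlib 3.10.9. After subtraction of genotype means, libraries with the same number had a Pearson correlation of 0.0094 across the 12491 genes. By this value no shift over all genes was shared by number. It cannot show whether same-numbered libraries were prepared together, and no pairing is stated in the sources used here.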

Additional observations from a re-analysis of the deposited data

How the results depend on the processing

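The receptors were refitted under 12 alternatives. The number called stayed at 0 in each direction in all of them, and the lowest adjusted p of a receptor was 0.0979. Of 312 receptor fits 296 kept their sign, and 17 receptors kept it in every fit. Over all genes the calls lower and higher moved from 151 and 31 to 0 and 0 with no filter on low values, to 61 and 23 with the same total per library, to 68 and 31 with centring, to 457 and 60 among protein-coding genes, to 93 and 31 with a replicate block, and to 9 to 22 and 3 to 20 without 1 library, with the cause not tested. The replicate block left the receptor median at −0.13 and changed no receptor call, while HADHA lost its call (adjusted p = 0.0622). HADHA and SMPDL3A also lost theirs with no filter (0.242 for both) and with the same total (0.0673 and 0.0509), and HADHA with centring (0.0614). PDK4 and SGK1 passed among protein-coding genes (0.0364 and 0.0302).

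The receptor median of −0.13 became −0.0425 with no filter (43 receptors), −0.31 with a mean FPKM of at least 5 (15 receptors; all tested genes −0.16) and 0.0454 with centring on each library's median, which moved the median of all tested genes from −0.14 to 0.0345, and ranged from −0.25 (without C/EBPβ enh-/- replicate 2) to −0.10 when 1 library was left out. The median of all tested genes was −0.10 without C/EBPβ enh-/- replicate 2, −0.19 without replicate 1, −0.15 without WT replicate 1 and −0.14 without WT replicate 2, so the receptor median was the lower one in 3 of these 4 fits. Centring turned NR1D2 (0.0499), NR2F2 (0.0454), NR2F6 (0.0681), NR3C1 (0.0467), NR4A3 (0.14) and DUSP1 (0.00871) above 0. Leaving out 1 library moved CEBPZ from −0.0643 to 0.19, CRABP2 from −0.26 to 0.53, DBP from −1.06 to 0.0243, DUSP1 from −0.61 to 0.27, HR from −1.38 to 0.14, HSP90AA1 from −0.93 to 0.16, HSP90AB1 from −0.24 to 0.49, NR1D1 from −0.46 to 0.0307, NR1D2 from −0.45 to 0.21, NR1H2 from −0.0265 to 0.75, NR2F2 from −0.32 to 0.058, NR2F6 from −0.36 to 0.15, NR3C1 from −0.38 to 0.13, NR4A3 from −0.25 to 0.18, NR6A1 from −0.0581 to 0.24, RXRA from −0.10 to 0.32 and RXRB from −0.0505 to 0.27. The cause of these reversals was not tested. The number of receptors counted as expressed was 27, 25 with 1 FPKM asked in every library, 29 with a mean of at least 0.5, and 26 to 27 without 1 library, an alternative chosen after seeing the data. Depth limits receptors under 0.1 FPKM, whose values rest on few fragments or none.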
